A study of Mus musculus with 24 samples.

Results

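The 8 genes described here are listed as genes of the resident macrophages of the heart, and were measured in 24 mouse hearts. They are Mrc1, Cd163, Lyve1, Folr2, F13a1, Cbr2, Igf1 and Gas6, taken by symbol as 8 of the 46078 rows of the unfiltered count table. Which cells their RNA came from was not tested. All 8 were among the 15456 genes that passed the filter on low counts.

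The libraries were made from poly(A) RNA of the ventricular apex of male C57BL/6 mice, 10 weeks old, on day 5. DTR_PYR animals had an injury made with diphtheria toxin and received pyridostigmine, a drug that blocks the enzymes that break down acetylcholine. DTR_PBS animals had the same injury and received the vehicle, PBS. WT_PYR animals had no toxin and received pyridostigmine, and WT_PBS animals had no toxin and received the vehicle. Each group held 6 animals. DTR commonly stands for the receptor of diphtheria toxin, and the labels do not say which cells had it. The genotype and the toxin cannot be told apart, and "injury" covers both. The bulk tissue holds every cell type of the heart, and more cells of a type and more RNA per cell cannot be told apart in it.

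Resident macrophages of the heart settle before birth or in early life and renew largely within the tissue. They carry uptake receptors, clear dying cells and debris, and release growth factors. After injury, monocytes from the blood enter the heart and become macrophages beside them. Of the 8 genes, Mrc1, Cd163, Lyve1 and Folr2 encode surface receptors, F13a1 and Cbr2 encode enzymes, and Igf1 and Gas6 encode secreted ligands. Some of the 8 are also made by other cells: Lyve1 also marks lymphatic endothelium, F13a1 is present in platelets, and fibroblasts and vascular cells also make Igf1 and Gas6.

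Total counts ranged over 2387030 to 37842245 in DTR_PYR, 1877914 to 36318026 in DTR_PBS, 7238454 to 15294299 in WT_PYR and 3733114 to 34851656 in WT_PBS libraries. The 8 genes had between 20 and 8654 counts each in a library, so the shallowest libraries give the least precise values. Genes of cardiomyocytes took 22389 to 85715 CPM (counts-per-million on the effective library size) in every library, and 4 of 7 such genes fell after injury without the drug. On the first principal component of all genes, the 12 WT libraries had scores of −57.2 to −35.1. DTR_PYR 4, 5 and 6 had scores of −35.4, −25.6 and −20.9, and the other 9 DTR libraries of 30.3 to 114. For comparisons that involve DTR_PYR, counts and some values of the 8 genes are therefore also given without these 3. Results of the other gene lists are not given that way. The tag of each animal closes with the letter U or V, which the labels do not explain. Each DTR group held 2 U and 4 V animals, and each WT group 4 U and 2 V.

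The first comparison, DTR_PBS against WT_PBS, asked how the resident macrophage genes stood after injury without the drug. Mrc1, F13a1, Igf1, Lyve1, Cbr2 and Folr2 rose, 6 of the 8, Gas6 fell and Cd163 did not pass the test. The rises ranged over 0.94 to 2.22 on the log2 scale, with Mrc1 at the top and Folr2 at the bottom. In edgeR's quasi-likelihood test with Benjamini-Hochberg adjustment, 42.9% of all genes were called in this comparison, 21.3% higher and 21.6% lower. The libraries of the 2 groups did not overlap for the 6 genes that rose, which held for 22.2% of all genes tested, 11.2% on the higher side. The median log2 fold change was 1.05 over the 8 genes and 0.01 over all genes.

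**Figure D1:**
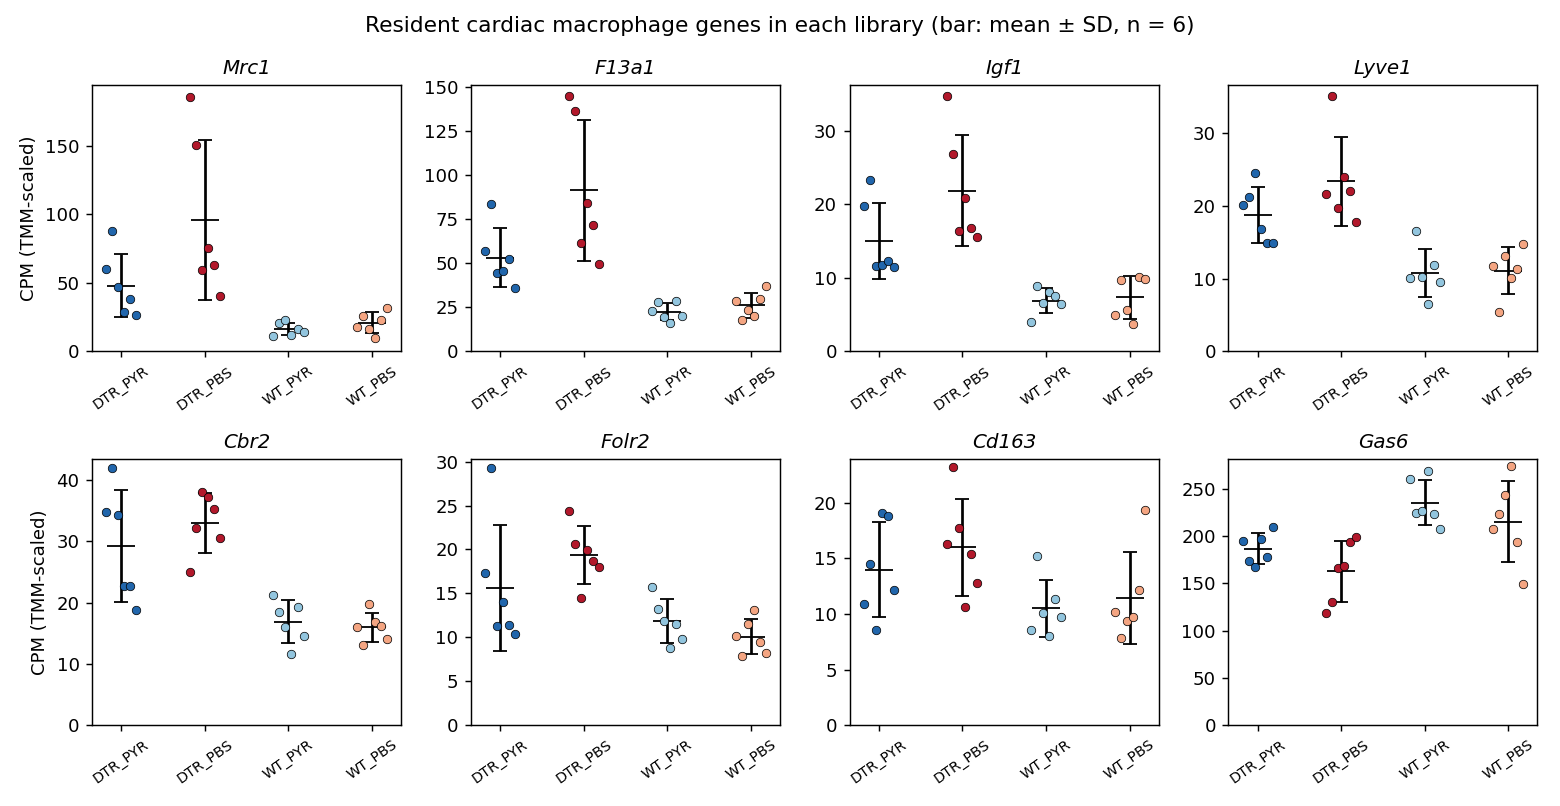
CPM of each of the 8 genes in every library, by group; points are libraries, and bars are the mean ± SD of 6. Mrc1 averaged 95.7 CPM in DTR_PBS and 20.8 CPM in WT_PBS, and Gas6 was lower in DTR_PBS, at 163 CPM, than in WT_PBS, at 216 CPM.

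Mrc1 (ENSMUSG00000026712, GRCm38 chr2:14229392-14332057) encodes the mannose receptor, which takes up glycoproteins and collagen fragments. Its level ranged over 40.4 to 186 CPM in DTR_PBS hearts (median 69.0) and 9.90 to 31.6 CPM in WT_PBS hearts (median 20.4). Every injured heart was above every uninjured one, and DTR_PBS 1 and 2 were the highest, at 186 and 151 CPM. The fold change was 4.65, with a log2 value of 2.22 (95% interval 1.5 to 2.94, adjusted p = 4.68e-05). Mir511 lies inside the Mrc1 locus but had 1 count in all libraries together.

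F13a1 (ENSMUSG00000039109, chr13:36867178-37050244) encodes the catalytic A subunit of coagulation factor XIII, a transglutaminase that cross-links fibrin. It ranged over 49.6 to 145 CPM in DTR_PBS hearts (median 77.9) and 17.9 to 37.1 CPM in WT_PBS hearts (median 26.2). As for Mrc1, the groups did not overlap and DTR_PBS 1 and 2 were the highest. The fold change was 3.47 (log2 1.80, 1.29 to 2.31, adjusted p = 1.97e-05). Igf1 (ENSMUSG00000020053, chr10:87858265-87937042), which encodes insulin-like growth factor 1, ranged over 15.6 to 34.7 CPM in DTR_PBS hearts (median 18.8) and 3.77 to 10.1 CPM in WT_PBS hearts (median 7.68). Again the groups did not overlap, and the fold change was 3.06 (log2 1.62, 1.06 to 2.17, adjusted p = 7.25e-05). Igf1os overlaps the Igf1 locus over 5117 bases and the libraries do not keep strand, but only 18 counts were assigned to it in all.

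Mrc1, F13a1 and Igf1 had the largest fold changes of the 8, and their promoters are shown beside that of Gas6, the gene that fell. Each window runs from 250 bases before to 50 bases after a RefSeq start in GRCm38.p6, written 5′ to 3′ on the strand of the gene. Capitals in the first 3 mark GAGGAA on either strand, the PU box of the ETS factor PU.1 that macrophages depend on. Capitals in the last mark the GC box, GGGCGG on either strand.
Mrc1 chr2:14229164-14229463, plus strand: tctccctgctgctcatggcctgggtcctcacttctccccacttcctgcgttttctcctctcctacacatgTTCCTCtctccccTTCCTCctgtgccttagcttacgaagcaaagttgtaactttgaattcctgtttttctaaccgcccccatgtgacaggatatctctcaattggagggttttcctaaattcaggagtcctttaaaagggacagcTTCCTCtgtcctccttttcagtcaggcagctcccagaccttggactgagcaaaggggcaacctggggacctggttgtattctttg
F13a1 chr13:37050195-37050494, minus strand: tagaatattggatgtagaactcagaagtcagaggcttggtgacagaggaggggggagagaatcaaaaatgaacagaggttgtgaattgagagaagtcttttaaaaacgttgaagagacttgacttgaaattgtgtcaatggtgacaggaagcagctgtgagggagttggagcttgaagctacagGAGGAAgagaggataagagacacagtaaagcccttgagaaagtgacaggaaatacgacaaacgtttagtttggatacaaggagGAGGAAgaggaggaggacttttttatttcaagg
Igf1 chr10:87860861-87861160, plus strand: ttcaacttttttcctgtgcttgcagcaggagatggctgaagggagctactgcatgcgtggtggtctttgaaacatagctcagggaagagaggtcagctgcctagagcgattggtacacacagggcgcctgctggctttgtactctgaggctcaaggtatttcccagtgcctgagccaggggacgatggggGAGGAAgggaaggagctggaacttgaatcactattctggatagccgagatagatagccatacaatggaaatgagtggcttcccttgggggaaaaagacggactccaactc
Gas6 chr8:13494486-13494785, minus strand: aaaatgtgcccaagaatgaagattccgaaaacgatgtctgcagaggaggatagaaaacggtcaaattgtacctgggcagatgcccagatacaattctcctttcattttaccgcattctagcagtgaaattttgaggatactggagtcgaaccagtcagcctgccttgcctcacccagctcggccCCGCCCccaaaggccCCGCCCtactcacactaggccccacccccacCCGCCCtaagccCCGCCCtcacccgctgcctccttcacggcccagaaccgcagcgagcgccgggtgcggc
GAGGAA occurred 3 times in the Mrc1 window, 2 times in that of F13a1, 1 time in that of Igf1 and 0 times in that of Gas6, against a share of 28.3% of 32851 promoters with at least 1. Another F13a1 start (chr13:37049164-37049463) and the Cbr2 window held it 1 time each, and the windows of Folr2 and Cd163 did not hold it. The Gas6 window held 4 GC boxes and that of Mrc1 held 1, where 35.7% of promoters had at least 1. TGCTGA, an arm of the MAF recognition element, was in the Folr2 and Cbr2 windows and in 19.5% of all promoters. GC content was 58.3% in the Gas6 window and 38.0% in the Cd163 window, around a median of 52.7% over all promoters. These matches describe letters, not bound sites. Of the 8 genes, 7 had an entry in the promoter table.

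Lyve1 (ENSMUSG00000030787, chr7:110850607-110862953) encodes a hyaluronan receptor. It ranged over 17.7 to 35.2 CPM in DTR_PBS hearts (median 21.8) and 5.43 to 14.8 CPM in WT_PBS hearts (median 11.6). The groups did not overlap, and DTR_PBS 2 stood above the other injured hearts. The fold change was 2.08 (log2 1.05, 0.60 to 1.5, adjusted p = 0.000469). In a fit of V libraries alone Lyve1 did not pass (adjusted p = 0.0889).

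Cbr2 (ENSMUSG00000025150, chr11:120729489-120732114) encodes a carbonyl reductase. Its levels lay between 25 and 38.0 CPM in DTR_PBS hearts (median 33.8) and between 13 and 19.8 CPM in WT_PBS hearts (median 16.1). It was the least variable of the 6 that rose, with an SD of 14.8% of the mean in DTR_PBS, where Mrc1 had 61.0%. The fold change was 2.05 (log2 1.04, 0.66 to 1.41, adjusted p = 0.000114). Folr2 (ENSMUSG00000032725, chr7:101839990-101845331), the folate receptor beta of macrophages, ranged over 14.5 to 24.4 CPM in DTR_PBS hearts (median 19.3) and 7.87 to 13.1 CPM in WT_PBS hearts (median 9.77). Here too the groups did not overlap, with a fold change of 1.92 (log2 0.94, 0.50 to 1.39, adjusted p = 0.00116). The antisense gene Gm10602 overlaps most of the 1546 exon bases of Folr2 in GENCODE, and without strand its reads cannot be told apart from those of Folr2.

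Cd163 and Gas6 stood apart from these 6. Cd163 (ENSMUSG00000008845, chr6:124304651-124330527) encodes the receptor that removes haemoglobin bound to haptoglobin. Its range was 10.6 to 23.2 CPM in DTR_PBS hearts (median 15.8) and 7.87 to 19.4 CPM in WT_PBS hearts (median 9.96). The groups overlapped: WT_PBS 6 reached 19.4 CPM, while the other 5 WT_PBS hearts were at 12.2 CPM or less. The log2 fold change was 0.48 (0.01 to 0.96, adjusted p = 0.0927). Without WT_PBS 6 it was 0.71 (adjusted p = 0.0113). It also passed without the 3 libraries under 3000000 counts (0.57, adjusted p = 0.0480).

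Gas6 (ENSMUSG00000031451, chr8:13465374-13494535) encodes a vitamin K-dependent ligand of the receptors Tyro3, Axl and Mertk, which bridges dying cells to the phagocyte. It ranged over 119 to 199 CPM in DTR_PBS hearts (median 168) and 150 to 274 CPM in WT_PBS hearts (median 216). The groups overlapped, DTR_PBS 1 and 2 were the lowest, and the fold change was 0.76 (log2 −0.41, −0.70 to −0.11, adjusted p = 0.0258). This fall was lost without WT_PBS 3, WT_PBS 4, DTR_PBS 1 or DTR_PBS 2 (adjusted p 0.0605 to 0.0819). It was also lost with no filter on low counts (−0.41, adjusted p = 0.0583), in a fit of DTR_PBS and WT_PBS only (−0.40, adjusted p = 0.0649) and in V libraries alone (−0.16, adjusted p = 0.687). With scaling by total counts, which put the median of all genes at 0.38, Gas6 stood at −0.08 (adjusted p = 0.670) and Cd163 passed at 0.89 (adjusted p = 0.00316). That scaling called 5700 genes higher and 1757 lower, where the trimmed mean of M-values gave 3293 higher and 3342 lower.

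The direction of each of the 8 was the same within both tag letters. The differences of mean log2 CPM, in U and then V libraries, were 2.71 and 1.58 for Mrc1, 2.22 and 1.31 for F13a1, and 2.01 and 1.29 for Igf1. They were 1.28 and 0.71 for Lyve1, 0.97 and 1.02 for Cbr2, and 1.13 and 0.86 for Folr2. Those of Cd163 were 0.41 and 0.32, and those of Gas6 were −0.65 and −0.17. Separate edgeR fits called 7 of the 8 in U libraries, where 40.1% of all genes were called, and 5 in V libraries, where 17.3% were.

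**Figure D2:**
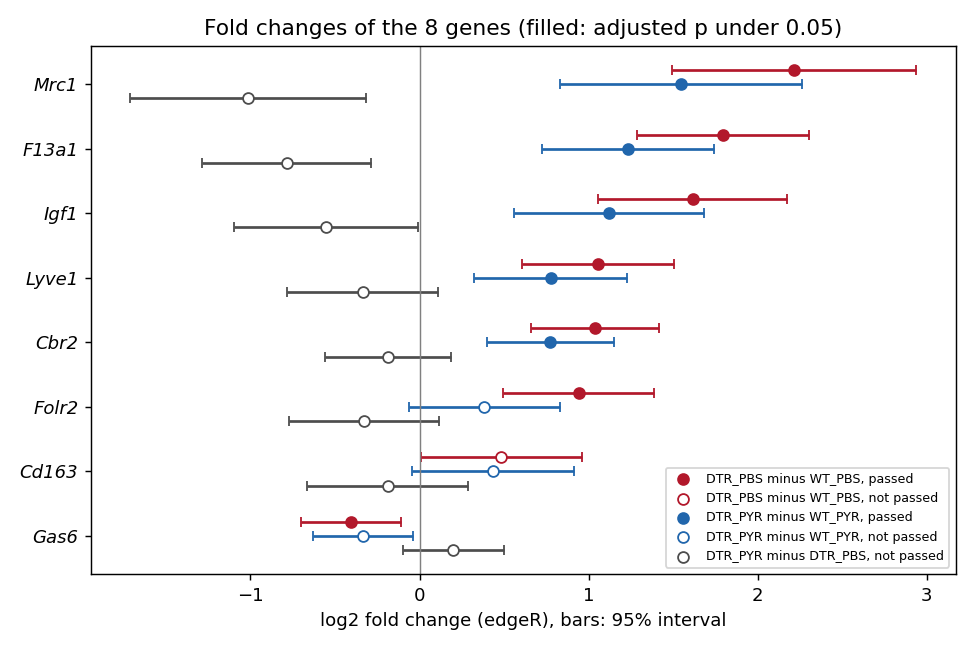
Log2 fold changes of the 8 genes with 95% intervals for injury without the drug, injury under pyridostigmine, and pyridostigmine in injured hearts; filled points passed an adjusted p of 0.05. Injury folds run over −0.41 to 2.22 without the drug and −0.33 to 1.55 under it, and all 8 points of the drug comparison are open.

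The second comparison, DTR_PYR against WT_PYR, asked the same under pyridostigmine. Mrc1, F13a1, Igf1, Lyve1 and Cbr2 rose, and Folr2, Cd163 and Gas6 did not pass. Called genes made up 12.2% of all genes in this comparison, 8.06% higher and 4.17% lower. Only Mrc1, F13a1 and Igf1 of the 8 had no overlap between the groups, which held for 5.36% of all genes, 2.19% on the higher side. The median log2 fold change of the 8 was 0.77, against 0.04 over all genes. Scaling by total counts put that median at 0.19 and called 1879 genes higher and 396 lower, where the trimmed mean of M-values gave 1245 higher and 645 lower.

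Mrc1 ranged over 26.2 to 87.5 CPM in DTR_PYR hearts (median 42.6) and 11.3 to 22.9 CPM in WT_PYR hearts (median 15.3). The log2 fold change was 1.55 (0.83 to 2.26, adjusted p = 0.00711). F13a1 lay between 36.2 and 84.0 CPM in DTR_PYR hearts (median 49.0) and between 16.4 and 28.7 CPM in WT_PYR hearts (median 21.5), a log2 fold change of 1.23 (0.73 to 1.74, adjusted p = 0.00373). The lowest injured heart was above the highest uninjured one for both. Igf1 was at 11.5 to 23.4 CPM in DTR_PYR hearts (median 12) and 4.04 to 8.85 CPM in WT_PYR hearts (median 7.06), a log2 fold change of 1.12 (0.56 to 1.68, adjusted p = 0.0107). Of the 6 DTR_PYR hearts, 4 were within 11.5 to 12.3 CPM for Igf1, and DTR_PYR 1 and 2 were at 19.9 and 23.4.

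Cbr2 ranged over 18.9 to 42.0 CPM in DTR_PYR hearts (median 28.5) and 11.6 to 21.3 CPM in WT_PYR hearts (median 17.3), with a log2 fold change of 0.77 (0.40 to 1.15, adjusted p = 0.00955). DTR_PYR 1 to 6 had 34.8, 42.0, 34.3, 22.8, 22.7 and 18.9 CPM of Cbr2, and the lowest of them lay within the WT_PYR range. Lyve1 was at 14.9 to 24.5 CPM in DTR_PYR hearts (median 18.5) and 6.58 to 16.5 CPM in WT_PYR hearts (median 10.2), a log2 fold change of 0.78 (0.32 to 1.23, adjusted p = 0.0248). The call for Lyve1 was lost without DTR_PYR 1, 2 or 3 or WT_PYR 4 or 6, with adjusted p between 0.0524 and 0.0626. It was also lost in limma voom (0.72, adjusted p = 0.0529). DTR_PYR 2 had the highest Folr2 of all libraries, 29.3 CPM; the other DTR_PYR hearts were at 10.4 to 17.4 CPM and WT_PYR hearts at 8.77 to 15.8 CPM. The log2 value of Folr2 was 0.38 (adjusted p = 0.241), that of Cd163 0.44 (adjusted p = 0.212) and that of Gas6 −0.33 (adjusted p = 0.123).

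Without DTR_PYR 4, 5 and 6, 6 of the 8 passed under pyridostigmine, as did 33.0% of all genes (5043), against 12.2% (1890) with them. These 3 hearts were picked because their first principal component scores lay next to those of WT libraries. More injury calls without them follow from that choice and are not separate support. Folr2 was among the 6, at 0.71 (adjusted p = 0.0272), Mrc1 stood at 2.0, Igf1 at 1.42 and Cbr2 at 1.13, and Cd163 at 0.11 (adjusted p = 0.801). In U libraries, which hold DTR_PYR 1 and 2, the differences of mean log2 CPM were 2.42 for Mrc1, 1.74 for Igf1 and 1.0 for Folr2. In V libraries, which hold DTR_PYR 3 to 6, they were 0.64 for Mrc1, 0.62 for Igf1 and −0.09 for Folr2. The U and V differences were 1.67 and 0.92 for F13a1, 1.14 and 0.42 for Lyve1, 1.23 and 0.47 for Cbr2, 0.42 and 0.17 for Cd163, and −0.38 and −0.27 for Gas6. None of the 8 passed in an edgeR fit of V libraries alone, where 0% of all genes were called. Nor did any without the 3 libraries under 3000000 counts (DTR_PYR 2, DTR_PYR 3 and DTR_PBS 4), where 0.647% of all genes were called. With so few calls over all genes, these 2 fits say little about the 8. DTR_PYR 2, one of these 3, had the highest level of Mrc1, F13a1, Igf1, Cbr2 and Folr2 among the DTR_PYR hearts.

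The effect of the drug within injured hearts, DTR_PYR against DTR_PBS, did not pass for any of the 8 genes in edgeR, and 0% of all genes were called. At an unadjusted p under 0.05 there were 3 of the 8 and 2991 of 15456 genes, and DESeq2 and limma voom called 0 of the 8 (242 and 1767 of all genes). Of the 8 values, 7 were negative and Gas6 was positive, at 0.20. Mrc1 averaged 48.0 ± 23.0 CPM in DTR_PYR hearts and 95.7 ± 58.4 CPM in DTR_PBS hearts (SD, n = 6 each), with a log2 value of −1.02 (−1.71 to −0.32, adjusted p = 0.144). F13a1 averaged 53.3 ± 16.6 CPM in DTR_PYR hearts and 91.5 ± 40.0 CPM in DTR_PBS hearts, at −0.79 (−1.28 to −0.29, adjusted p = 0.134). Igf1 averaged 15.1 ± 5.18 CPM in DTR_PYR hearts and 21.9 ± 7.56 CPM in DTR_PBS hearts, at −0.56 (−1.10 to −0.01, adjusted p = 0.249). The groups overlapped for all 8, and 0.375% of all genes had no overlap; DTR_PBS 3 to 6 had 40.4 to 75.3 CPM of Mrc1.

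The drug comparison depended on single libraries. Fits within letters gave −0.85 for Mrc1 and −0.73 for F13a1 in U libraries, and −1.20 for Mrc1 and −0.86 for F13a1 in V libraries. None of the 8 passed in either, and 0 of all genes were called in U and 608 in V libraries. Without DTR_PYR 2, Mrc1 stood at −1.27 (adjusted p = 0.0189), F13a1 at −0.96 (adjusted p = 0.0167) and Folr2 at −0.59 (adjusted p = 0.0351). That fit called 2395 of all genes, where the fit of all libraries called 0, so the change was not particular to the 8. DTR_PYR 2 had the highest score of the DTR_PYR hearts on the first principal component, at 104. Without the 3 libraries under 3000000 counts, Mrc1 (−1.39) and F13a1 (−0.97) passed, and 2080 genes were called. Without DTR_PYR 4, 5 and 6 the values were −0.57 for both Mrc1 and F13a1 and none of the 8 passed. In uninjured hearts, WT_PYR against WT_PBS, the 8 values ranged over −0.34 for Mrc1 to 0.23 for Folr2 and none passed (adjusted p = 0.998 for each). There, edgeR called 0% of all genes, and 0 of the 8 and 481 of all genes had an unadjusted p under 0.05; DESeq2 and limma voom called 0 of the 8. The interaction, which asks whether the injury effect differed with the drug, ranged over −0.67 for Mrc1 to 0.07 for Gas6. None of the 8 passed it in edgeR, DESeq2 or limma voom, 0 of the 8 and 1231 of all genes had an unadjusted p under 0.05, and 0% of all genes were called in edgeR; the interval for Mrc1 was −1.66 to 0.32.

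Other macrophage genes were described from lists. Of 15 genes shared by macrophages of all origins, 15 rose without the drug (median log2 2.37) and 14 under it (median 1.63), Csf1r being the exception at 0.75. Their summed level ranged over 465 to 3087 CPM in DTR_PYR, 969 to 2840 CPM in DTR_PBS, 307 to 557 CPM in WT_PYR and 331 to 508 CPM in WT_PBS. Of 12 genes of recruited monocytes and their early progeny, 11 rose without the drug (median 4.04) and 9 under it (median 2.71). The 12 log2 values were uneven, at 0.77 to 5.46 without the drug and 0.87 to 3.56 under it. Ccr2, the chemokine receptor that guides monocytes out of the marrow, averaged 45.0 ± 42.7 CPM in DTR_PBS and 2.21 ± 1.45 CPM in WT_PBS. Thbs1, a matrix protein of activated macrophages and platelets, rose by 4.41 without the drug and 3.52 under it. Of 7 MHC class II genes, Ciita rose without the drug (1.02, adjusted p = 0.0447) and the other 6 did not pass, at 0.13 to 1.08. Under pyridostigmine, the count of core macrophage genes called was 5 without DTR_PYR 2, and that of recruited monocyte genes was 3. Leaving out DTR_PYR 2 also moved the count of all genes called. With single libraries left out, that count ran over 748 (without DTR_PYR 1) to 2707 (without DTR_PYR 4). Of the 8 resident genes, 4 to 5 were called in each of these fits. Whether the drops in the core and recruited lists went beyond the change over all genes was not tested. The call for Ciita was not stable either, since leaving out single libraries gave 0 to 2 called MHC class II genes.

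**Figure D3:**
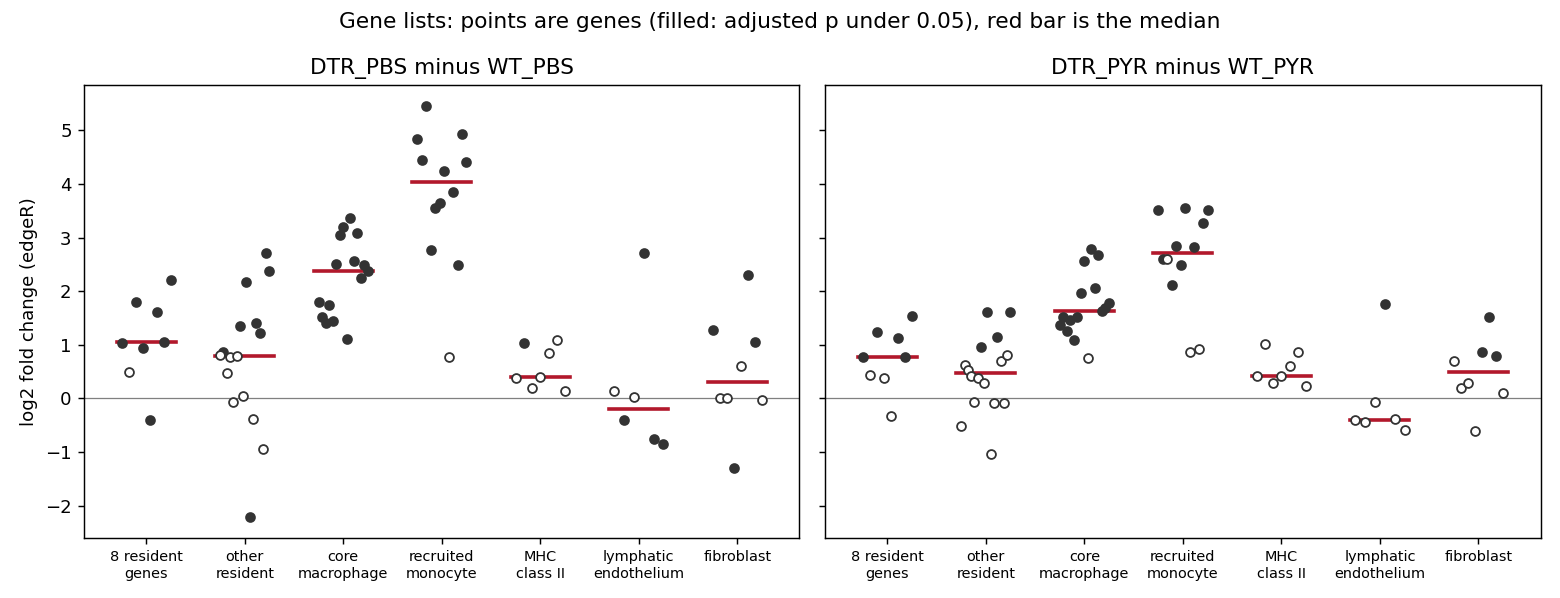
Log2 fold changes of single genes in 7 lists for DTR_PBS minus WT_PBS and DTR_PYR minus WT_PYR; filled points passed and red bars are medians. The 8 resident genes have medians of 1.05 and 0.77, below those of the core macrophage genes (2.37 and 1.63) and of the recruited monocyte genes (4.04 and 2.71).

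A further 20 genes of Lyve1-positive macrophages were listed, and 16 were tested. Of these, 7 rose without the drug, 1 fell and 8 did not pass (median 0.80). The rises included Pf4, a chemokine of macrophages and platelets (2.18, adjusted p = 0.000144), Wfdc17, a small secreted protein (2.37), Maf, a transcription factor of tissue macrophages (1.36), and Siglec1, a sialic acid receptor (1.41). Vsig4 had the largest rise of the 16, at 2.71 (adjusted p = 0.00275), although its groups overlapped. Stab1, a scavenger receptor, averaged 284 ± 99.6 CPM in DTR_PBS and 122 ± 15 CPM in WT_PBS. Retnla fell, at 0.70 ± 0.79 CPM in DTR_PBS and 2.44 ± 0.95 CPM in WT_PBS. Timd4, a phosphatidylserine receptor of long-lived resident macrophages, was low throughout: 0.84 ± 0.48 CPM in DTR_PBS and 1.62 ± 0.71 CPM in WT_PBS (log2 −0.93, adjusted p = 0.0763). Under pyridostigmine, Pf4, Wfdc17, Maf and Siglec1 rose and 12 did not pass (median 0.47); without DTR_PYR 2, none of the 16 passed in edgeR. The 4 genes that were not tested, Cd209b, Cd209d, Cd209f and Cd209g, had 7 to 53 counts each over all libraries.

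The design also allowed each gene to be set against the core macrophage genes of its own library. On this scale, log2 CPM minus the mean log2 CPM of the 15 core genes, Lyve1 averaged −1.58 ± 0.50 in DTR_PBS and −0.56 ± 0.76 in WT_PBS (SD, n = 6 each). Cd163 averaged −2.13 ± 0.61 in DTR_PBS and −0.51 ± 0.73 in WT_PBS, and Gas6 averaged 1.22 ± 0.95 in DTR_PBS and 3.74 ± 0.26 in WT_PBS. Lyve1 (−1.02), Folr2 (−1.18), Cd163 (−1.62), Cbr2 (−1.08) and Gas6 (−2.52) were lower relative to the core genes in limma after injury without the drug, with adjusted p between 3.44e-05 and 0.0226. Of all genes, 89.2% were called on this scale, 88.1% lower and 1.15% higher, so these falls were shared by most of the transcriptome. Mrc1 (−0.04, −0.77 to 0.69), F13a1 (−0.39, −1.14 to 0.36) and Igf1 (−0.53, −1.34 to 0.28) did not pass. Mrc1 was at 0.00 to 0.58 in all 6 DTR_PBS hearts and at −0.78 to 1.31 in WT_PBS hearts.

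Under pyridostigmine, Folr2 (−1.0, adjusted p = 0.0150) and Gas6 (−1.66, adjusted p = 0.00777) were lower on this scale, where 69.1% of all genes were called (68.7% lower, 0.33% higher), and the other 6 did not pass. Cd163 passed without DTR_PYR 4 (−1.23, adjusted p = 0.0234) or DTR_PYR 5 (−1.23, adjusted p = 0.0226). Without DTR_PYR 4, 5 and 6, 7 of the 8 were lower, as were 90.7% of all genes, and Mrc1 stood at −0.30. The result turned on the genes it was set against. With Csf1r alone, 67.3% of all genes were called without the drug (4.59% higher and 62.7% lower), and 3 of the 8 were: Mrc1 (0.99, adjusted p = 0.00789) and F13a1 (0.64, adjusted p = 0.0279) were higher, Gas6 was lower, and Lyve1 stood at 0.01, Cbr2 at −0.04 and Folr2 at −0.14. With C1qa, C1qb and C1qc, 3 of the 8 were called, all lower, where 76.1% of all genes were called lower. The 15 core genes differed among themselves, with Csf1r at −1.03 and Cd68 at 1.05 against their common mean. Lyve1 was also lost without WT_PBS 5, WT_PBS 6 or DTR_PBS 1 (−0.91 to −0.84, adjusted p 0.0530 to 0.0655).

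**Figure D4:**
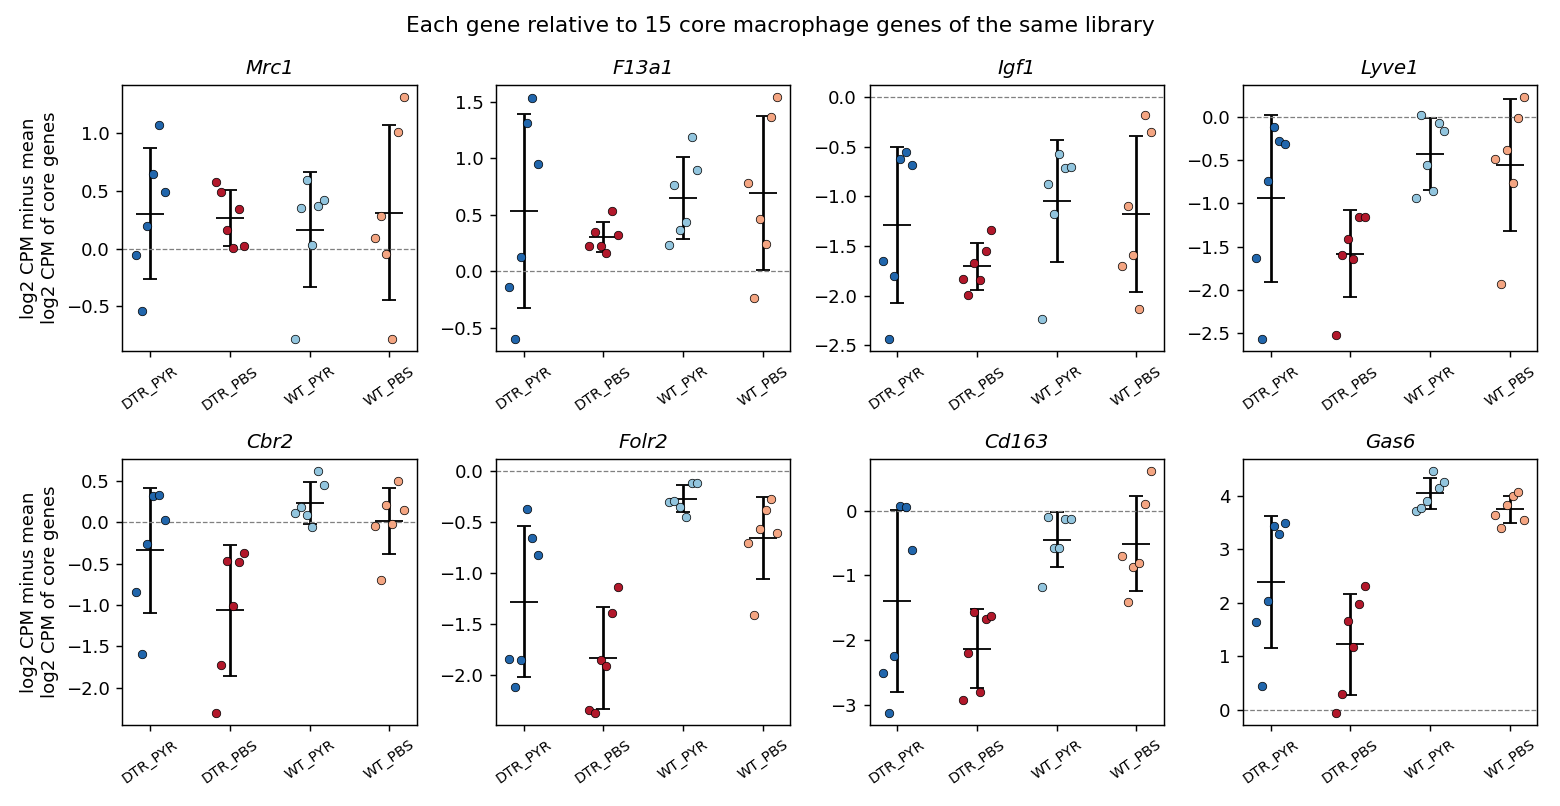
Log2 CPM of each gene minus the mean log2 CPM of the 15 core macrophage genes of the same library, by group; points are libraries and bars are the mean ± SD of 6. Gas6 averaged 1.22 in DTR_PBS and 3.74 in WT_PBS, while Mrc1 averaged 0.27 in DTR_PBS and 0.31 in WT_PBS.

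Other cell types that use the same genes were checked by their own markers. Of 6 lymphatic endothelial genes, Pdpn rose after injury without the drug and Prox1, Flt4 and Reln fell. Prox1, the transcription factor that defines lymphatic endothelium and is also made by cardiomyocytes, averaged 54.2 ± 16.2 CPM in DTR_PBS and 91.3 ± 7.24 CPM in WT_PBS. The summed level of the 6 was 132 to 160 CPM in DTR_PBS and 146 to 164 CPM in WT_PBS, and none was at 0 in every library. Their mean log2 CPM, which weights genes alike, was 3.89 ± 0.15 in DTR_PBS and 3.79 ± 0.14 in WT_PBS (SD, n = 6 each). Among 8 fibroblast genes, Pdgfra (1.04), Col15a1 (1.27) and Mfap5 (2.31) rose, Gsn fell and 4 did not pass. Their sums, which follow the most abundant genes, were lower after injury, at 1379 to 1692 CPM in DTR_PBS and 1859 to 2776 CPM in WT_PBS. The mean log2 CPM of these 8 was higher after injury, at 6.47 ± 0.17 in DTR_PBS and 6.02 ± 0.08 in WT_PBS. Ppbp was the 1 of 3 tested platelet genes that rose, and their sum was 3.6 to 14.9 CPM in DTR_PBS and 1.9 to 4.6 CPM in WT_PBS. Of 6 blood endothelial genes, 5 fell. Of 6 smooth muscle genes, 2 rose and 2 fell. The part of these cells in the levels of Lyve1, Igf1, F13a1 and Gas6 was not tested.

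The partners of the 8 genes were described from lists. Around the uptake receptors, Has1 and Has2, which make the hyaluronan that Lyve1 binds, rose by 4.05 and 3.66 without the drug, and Cd44, another hyaluronan receptor, rose by 2.90. Has3 and Hyal1 fell, so 6 of 9 hyaluronan genes rose and 2 fell. Under pyridostigmine 4 of the 9 rose, and 1 without DTR_PYR 1. Of 11 tested genes of haemoglobin and haem handling, 5 rose and 4 fell without the drug. Hmox1, the haem oxygenase that works downstream of Cd163, averaged 264 ± 96.3 CPM in DTR_PBS and 19.3 ± 8.88 CPM in WT_PBS. Hp, haptoglobin, rose by 3.55 and the scavenger receptor Msr1 by 4.58, and Slc40a1, the iron exporter, stood at −1.88 and fell. Under pyridostigmine 5 rose, Hmox1 among them at 3.22, but 1 did without DTR_PYR 2. Of 5 tested folate genes, Mthfd2, a mitochondrial folate enzyme, rose (2.33) and Shmt2 fell without the drug, a share near that of all genes. With single libraries left out, 1 to 3 of the 5 were called.

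Around F13a1, 7 of 8 tested genes of fibrin turnover and cross-linking rose without the drug and 3 under it. Under the drug the count ran over 2 without DTR_PYR 1 to 6 without DTR_PYR 4. Plaur, the urokinase receptor, rose by 2.63 without the drug and 2.43 under it, and Tgm2, tissue transglutaminase, by 0.83 and 0.68. The fibrinogen genes Fga, Fgb and Fgg had 7 to 15 counts each over all libraries, and F13b, the carrier subunit of factor XIII, had 0 counts.

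Around Igf1, 4 of 15 tested genes rose and 7 fell without the drug, with a median of −0.45. Igf1r, its receptor, rose by 0.83 with no overlap between the groups, and Pappa, a protease that frees the ligand from binding proteins, by 1.75. Igfbp5, a binding protein, averaged 73.7 ± 11.8 CPM in DTR_PBS and 173 ± 48.7 CPM in WT_PBS and was called lower in both injury comparisons (−1.24 without the drug and −0.99 under it). Around Gas6, its receptors Axl (0.72, adjusted p = 0.00162) and Tyro3 (1.02, adjusted p = 0.00404) rose without the drug, as did Pros1 (0.97), the other ligand of the family. Mertk was at 0.80 (adjusted p = 0.0543), and Ggcx, the carboxylase that activates Gas6, fell. Under pyridostigmine Pros1 rose (0.82, adjusted p = 0.0382) and the other 6 did not pass. None of the 7 passed without DTR_PYR 1, 2 or 3 or without any single WT_PYR library, and 2 did without DTR_PYR 4, 5 or 6. Of 11 tested growth and transcription factors of macrophages, 6 rose without the drug, among them Spi1, which encodes PU.1 (2.17), and 4 rose under it. Without DTR_PYR 2, 1 of the 11 was called under the drug.

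Levels were compared between genes only per kilobase of exons. In DTR_PBS hearts the order was Gas6 (63.9 ± 12.8 CPM per kilobase), Cbr2 (24.9 ± 3.68), Mrc1 (15 ± 9.16), F13a1 (13.6 ± 5.94), Folr2 (12.5 ± 2.11), Lyve1 (8.01 ± 2.11), Cd163 (2.93 ± 0.80) and Igf1 (2.21 ± 0.76). Mrc1, F13a1 and Folr2 lay within 1 SD of each other, as did Cd163 and Igf1. In WT_PBS hearts Gas6 (84.6 ± 16.8 CPM per kilobase) and Cbr2 (12.1 ± 1.78) led, then Folr2 (6.49 ± 1.29). F13a1 (3.90 ± 1.04), Lyve1 (3.80 ± 1.10) and Mrc1 (3.26 ± 1.20) lay within 1 SD of each other. Cd163 (2.1 ± 0.76) and Igf1 (0.74 ± 0.29) were the lowest. The mean of Mrc1 was above those of Folr2 and Lyve1 in DTR_PBS and below both in WT_PBS. The mean of Mrc1 was within 1 SD of Mrc1 from that of Folr2 in DTR_PBS, and from that of Lyve1 in both groups. These SDs are between hearts and do not pair the genes within a heart. The order of the genes within single hearts was not tested.

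Likeness of pattern was measured as the root mean square difference of centred log2 CPM over the 24 libraries, as a description. The closest pairs within the 8 were Folr2 with Cbr2 (0.32), Lyve1 with Cbr2 (0.32), F13a1 with Igf1 (0.39) and Mrc1 with F13a1 (0.40), and the farthest was Mrc1 with Gas6 (1.38). Among 9925 genes compared, the nearest to Mrc1 were Baz1a, Nop58 and Hsp90aa1 (0.28 to 0.30), and the nearest to F13a1 were Serp1, Ctsc and Ugdh (0.29 to 0.33). Zeb2, Bmp2k and Adam9 were nearest to Igf1 (0.27 to 0.28), Cyb561, Slc19a2 and Hnrnpc to Lyve1 (0.28 to 0.31), and Ccdc80, Elavl1 and Nol9 to Cbr2 (0.21 to 0.23). Srsf9, Nans and Cd9 were nearest to Folr2 (0.17 to 0.20), Sestd1, Ltn1 and Tcaf1 to Cd163 (0.27 to 0.29), and Cenpb, Hmg20b and Csnk1g2 to Gas6 (0.10 to 0.11). A gene that varies little, such as Gas6, is close to many others on this measure.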

How the data were processed

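The authors deposited unfiltered counts per gene from 24 polyadenylated, single-end libraries that do not keep strand, per the labels' protocols. Per the submitters' processing notes the build was GRCm38; HTSeq, TopHat2 2.1.1, TopHat, Bowtie2, edgeR and DESeq are listed there without roles. The authors also deposited a depth-normalised signal table. For 15140 genes, 99.9997% of its values gave whole reads (tolerance 0.05), and once rounded 100% equalled the deposited counts. On those reads edgeR called 6656 genes for injury without the drug and 1959 under it. Each title has its own animal tag, so a library was taken as 1 animal.

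The 15456 genes with over 0.5 CPM in 6 or more libraries were fitted, after trimmed-mean-of-M-values scaling, with edgeR 4.0.16 (glmQLFit, glmQLFTest; R 4.3.3), with 1 coefficient per group. Tests were two-sided, with Benjamini-Hochberg adjustment over all genes and a threshold of 0.05. The relative scale used limma 3.58.1 on log2 CPM (prior count 2). Alternatives were DESeq2 1.42.0, limma voom, other filters and scaling, libraries by tag letter or depth, and single libraries left out. Both models were tested on simulated counts in which few genes changed, with rises and falls drawn alike. That test does not bear on how scaling affected Gas6 and Cd163. Exon lengths came from GENCODE vM21 and promoters from RefSeq; motifs were searched on both strands. Loci are as deposited, with 1 added to the start. The 8 genes and the 21 lists (193 genes) were chosen with earlier results of these data known. Named genes are the 8, up to 3 called genes of each list by p, defining genes of a list, and the 3 genes nearest to each of the 8 among those with a mean of at least 5 CPM; a few list genes named as examples were chosen after their values were seen. 1 listed gene had no row.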

Additional observations from a re-analysis of the deposited data

Results flagged for a closer look

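Lyve1 in DTR_PBS 2 was 35.2 CPM and the next DTR_PBS heart was at 23.9 CPM, a gap of 0.645 of the group's range, so that this heart stood far from the other 5. Folr2 in DTR_PYR 2 was 29.3 CPM and the next DTR_PYR heart was at 17.4 CPM, a gap of 0.632 of the range. In groups of this size, chance marks about 1 in 20, and 32 groups were looked at.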

How the results depend on the processing

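The alternatives that left out DTR_PYR 4, 5 and 6 or used reads recovered from the normalised table were chosen after seeing the data. No paired analysis was possible because replicate numbers follow accession order and each animal has its own tag. DESeq2, a 13-library filter and a letter covariate each kept the direction and the side of the threshold for 40 of 40 values of the 8 genes. Recovered reads did too, but they equalled the deposited counts in 100% of values, so their fit is no separate check. Leaving out single libraries kept both for 1302 of 1344, with 24 signs turned, 12 calls lost and 6 gained. The causes of the changes below were not tested.

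For injury without the drug, V libraries alone called 2461 of all genes (6635 in all libraries). For injury under pyridostigmine (1890), voom called 787, no filter 1232, only the 2 groups 1254, the letter covariate 2920, U libraries 4218, V libraries 0, libraries of at least 3000000 counts 98, and the set without DTR_PYR 4, 5 and 6 called 5043; V libraries and the deeper libraries called 0 of the 8 genes. For the drug in injured hearts (0), DESeq2 called 242, voom 1767, V libraries 608 and the deeper libraries 2080, 2 of the 8 genes among them. In uninjured hearts DESeq2 called 1 gene, as did the set without DTR_PYR 4, 5 and 6; for the interaction DESeq2 called 9 and the deeper libraries 10. With single libraries left out, the counts for all genes ran over 5661 to 6873, 748 to 2707 (injury under the drug) and 0 to 2395 (the drug in injured hearts, 0 to 3 of the 8 genes).

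Signs turned as follows. Total-count scaling gave 0.032 for Lyve1 and 0.023 for Igf1 in uninjured hearts, and −0.094 for the interaction of Gas6. Voom gave 0.033 for Igf1 in uninjured hearts and 0.011 for the interaction of Cd163. U libraries gave 0.033 for Folr2 and 0.32 for Cbr2 in injured hearts, and 0.22 for the interaction of Cbr2. V libraries gave −0.10 for Folr2 (injury under the drug), 0.022 for Igf1 in uninjured hearts and −0.12 for the interaction of Gas6. Without DTR_PYR 4, 5 and 6, Cbr2 was at 0.17 in injured hearts and 0.093 for the interaction, and Mrc1 at −0.30 relative to the core genes under the drug, where 7 of the 8 were called. Relative to Csf1r without the drug (3 called, and 67.3% of all genes), Lyve1 was at 0.010, Mrc1 at 0.99, F13a1 at 0.64 and Igf1 at 0.51. Under the drug, Lyve1 was at 0.20, F13a1 at 0.60, Igf1 at 0.47 and Cbr2 at 0.14 relative to Csf1r. There, 1 of the 8 was called, on the lower side, and 18.7% of all genes were (17.4% lower and 1.24% higher). Relative to the C1q genes (3 called without the drug), Mrc1 was at 0.55, F13a1 at 0.20 and Igf1 at 0.066 without the drug, and F13a1 at 0.21 and Igf1 at 0.082 under it.

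With single libraries left out, values for the drug in uninjured hearts ran over −0.22 to 0.049 for Lyve1, −0.28 to 0.089 for Cd163, −0.20 to 0.074 for Igf1 and −0.00060 to 0.16 for Cbr2. Interactions ran over −0.28 to 0.089 for Cd163 and −0.0095 to 0.16 for Gas6. Relative values ran over −0.26 to 0.16 for Mrc1 without the drug, −0.052 to 0.31 for Mrc1 under it and −0.32 to 0.11 for F13a1 under it. Depth limits the least abundant genes, with 20 counts of Lyve1 in 1 library.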
